A study of Rattus norvegicus with 16 samples.

Results

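Gene expression in the proximal femur of Fischer 344 (F344) rats was compared with that of Copenhagen 2331 (COP) rats, 4 arrays against 4. Members were chosen by their strain label alone, which took 8 of the 16 arrays of the series, and every one of the 10548 genes that passed a filter on low signal was compared. Both groups were 4-week-old animals of an inbred strain, with no treatment named in the labels, and RNA came from the proximal end of the thigh bone with whatever marrow, cartilage, muscle and fat the piece held. The other 8 arrays came from Lewis (LEW) and Dark Agouti (DA) rats of the same age, 4 each. They entered the filter on low signal, the choice of the probe set that stood for each gene, the estimate of spread and a description of where they lay. The series was designed around a chromosome 4 locus for skeletal traits of an F344 by LEW cross; no question is stated for F344 against COP. The labels do not say whether the replicates were separate animals or pools, nor the sex, so all p-values measure only the spread between these samples, which may be technical.

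Inbred strains are fixed for different alleles at many genes, so a comparison of strains reads inherited differences in expression together with any difference in the makeup of the tissue. The proximal femur of a young rat holds bone-forming osteoblasts, resorbing osteoclasts, osteocytes in the mineral, growth plate cartilage, and red marrow in which erythroid cells, neutrophils, B-cell precursors and megakaryocytes are made. Attached muscle, tendon and fat add their own messages to such a piece.

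Precision here is set by having 4 arrays in each strain. The deposited signals were scaled within each array, and array medians lay between 313 and 325 in F344 and between 318 and 324 in COP. The Gapdh 3′ to 5′ signal ratio, a sign of RNA integrity, was 1.04 ± 0.0226 (SD, n = 4) in F344 and 1.01 ± 0.0278 (SD, n = 4) in COP. The same ratio was higher for beta-actin, at 2.14 ± 0.128 and 1.98 ± 0.0665 (SD, n = 4 each), and for hexokinase, where single arrays ran from 2.30 to 4.11 in F344 and from 2.41 to 4.12 in COP; its part in the results was not tested. Across kept probe sets, arrays of the same strain correlated at r of 0.986 to 0.989 in F344 and 0.983 to 0.988 in COP, and the 16 pairs across the strains at 0.963 to 0.968. The labelled tissue was borne out by its markers: Col1a1, the main collagen of bone, read 56190.0 to 66192 over the 8 arrays, and the cartilage collagen Col2a1 and the globin Hbb were also abundant. The liver, kidney and pancreas genes Alb, Umod and Ins2 stayed under the filter, as did the T cell gene Cd3e, and Mpo, Vpreb1 and Cdh5 had no probe set named here.

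The COP arrays were less even than the F344 arrays in muscle and cartilage genes. The mean log2 signal of 55 skeletal muscle genes, relative to the mean of the 8 arrays, was -0.50, -0.32, -0.01 and -0.02 on COP replicates 1 to 4, against 0.17 to 0.23 on the F344 arrays. The mean of 27 growth plate cartilage genes was 0.31, 0.03, -0.13 and -0.49 on COP replicates 1 to 4, against 0.04 to 0.11 in F344. F344 was the most even of the 4 strains in both lists. The SD (n = 4) of the muscle means was 0.03 in F344, 0.24 in COP, 0.21 in LEW and 0.11 in DA. For cartilage it was 0.04, 0.33, 0.33 and 0.14 in the same order. COP replicates 1 and 2 had the lowest muscle means, and results that rest on them are given below with and without them. That alternative was chosen after the muscle values were seen. For cartilage it leaves COP replicates 3 and 4, the COP arrays with the lowest cartilage means. The plot of list means by array shows the COP spread beside lists in which the COP arrays stayed together.

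**Figure D1:**
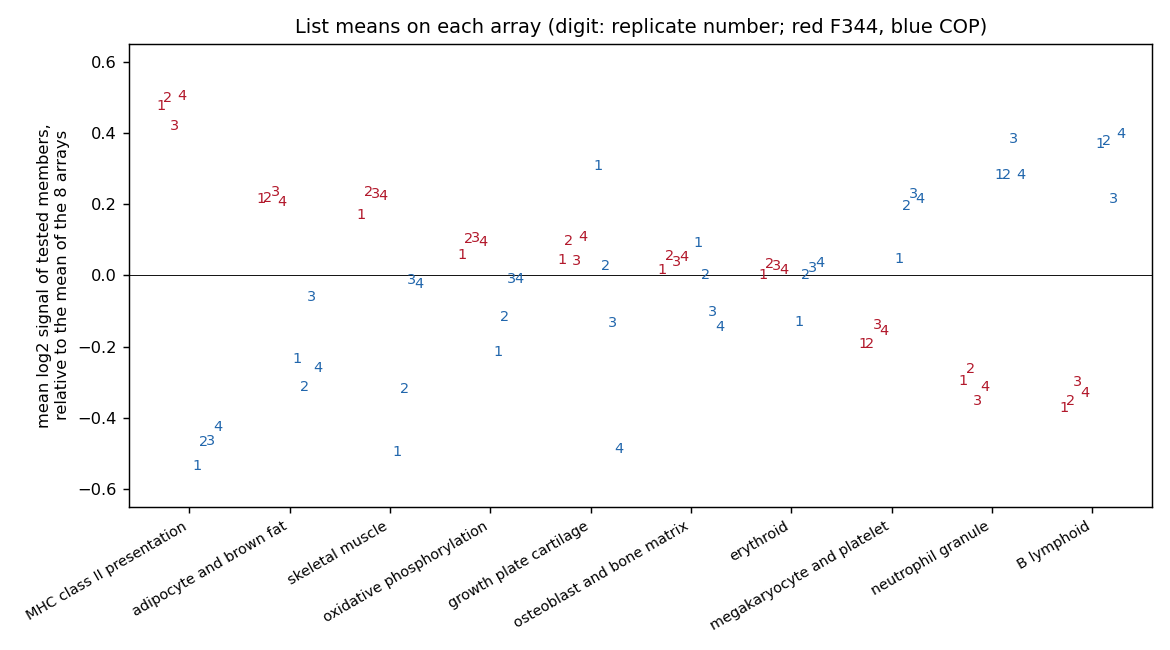
Mean log2 signal of the tested members of 10 gene lists on each of the 8 arrays, relative to the mean of those arrays (vertical axis); each digit is a replicate number, red for F344 and blue for COP. The strains separate with little spread in the MHC class II and B lymphoid lists, while COP runs from -0.50 to -0.01 in the skeletal muscle list and from 0.31 to -0.49 in the cartilage list.

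Of the 10548 genes tested, 2218 differed between F344 and COP at a limma adjusted p under 0.05, which is 21.0% of them and the background for every count of called genes below. F344 was higher in 1097 genes (10.4%) and lower in 1121 (10.6%). Most differences were small: 149 genes (1.41%) differed 2-fold or more, 59 higher and 90 lower in F344, and 9 and 13 of them 4-fold or more. The 4 arrays of one strain did not overlap the 4 of the other in 2850 genes (27.0%), of which 2008 were also called. At the level of probe sets, 3699 of 18625 (19.9%) were called, 1750 higher (9.40%) and 1949 lower (10.5%), with a median absolute log2 difference of 0.44 and a median standard error of 0.10; 361 (1.94%) differed 2-fold or more, and 4679 (25.1%) had F344 and COP ranges apart. The median difference over all genes was 0.00. Without COP replicates 1 and 2, 1294 genes were called, 605 higher and 689 lower.

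**Figure D2:**
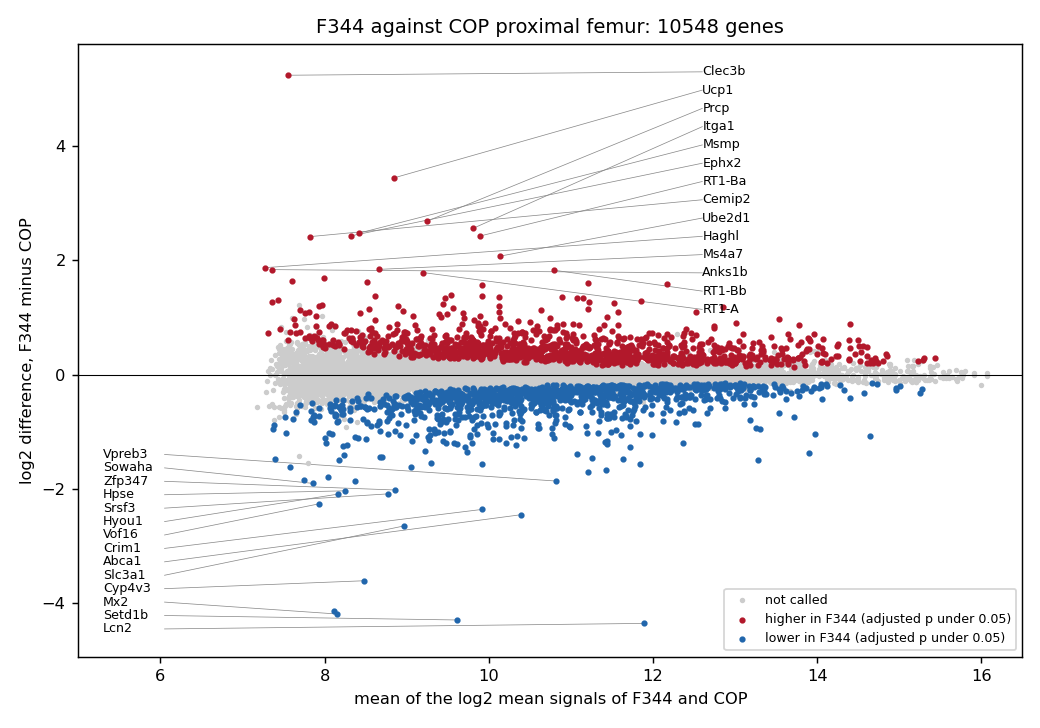
Each point is 1 of 10548 genes; the horizontal axis is the mean of the log2 mean signals of F344 and COP and the vertical axis the log2 difference, F344 minus COP. Genes with adjusted p under 0.05 are red where higher and blue where lower in F344, and the 14 largest rises and 14 largest falls among genes with separate arrays are named (1 numbered locus is passed over), from Clec3b at 5.24 to Lcn2 at -4.36.

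Clec3b, on chromosome 8 (chromosomes are those of the RefSeq annotation of GRCr8), was the gene furthest above COP in F344. It encodes tetranectin, a secreted C-type lectin that binds plasminogen and is found in mineralizing bone. Its signal was 1150.0, 975, 948 and 989 on the F344 arrays and 32.8, 19.5, 75.1 and 10.7 on the COP arrays. The lowest F344 array thus lay far above the highest COP array, and the log2 difference was 5.24 ± 0.47 (SE; adjusted p = 6.12e-08 by limma), a 37.8-fold higher signal in F344. The COP signals lay within the range of Ins2, the pancreas gene (5.49 to 94.6), so the size of the difference is set against a level not told from background. A second Clec3b probe set, under the filter and not tested, also stood higher in F344, at a mean of 390.4 against 29.4. The LEW arrays averaged 905 ± 105 (SD, n = 4) and the DA arrays 50.2 ± 33.0 (SD, n = 4), so the 4 strains formed a high pair and a low pair.

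Ucp1 (chromosome 19), the mitochondrial uncoupling protein that makes heat in brown fat, came next. F344 arrays read 1359, 1441, 1524 and 1414, and COP arrays 266, 93.6, 159 and 75.8. F344 was narrow and COP was not, with a log2 difference of 3.45 ± 0.55 (SE; adjusted p = 1.18e-04 by limma). LEW arrays spread more widely than either, with a mean of 1037 ± 1203 (SD, n = 4).

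Prcp (chromosome 1), a lysosomal carboxypeptidase that cleaves angiotensin and other peptides after proline, read 1645, 1590.1, 1398 and 1368 in F344 and 324, 276, 133 and 248 in COP. The log2 difference was 2.68 ± 0.26 (SE; adjusted p = 1.53e-07 by limma), and its other probe set, under the filter, showed 1.95. Ephx2, the soluble epoxide hydrolase that breaks down fatty acid epoxides, read 725, 747, 789 and 672 against 103, 153, 171 and 127, a log2 difference of 2.43 ± 0.22 (SE; adjusted p = 8.00e-08 by limma). Cemip2, a cell-surface hyaluronidase, read 556, 485, 553 and 440.3 against 73.6, 63.4, 136 and 128, a log2 difference of 2.41 ± 0.27 (SE; adjusted p = 1.68e-06 by limma). In all 3 genes the LEW mean lay on the F344 side of the midpoint between the strains and the DA mean on the COP side.

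Itga1 (chromosome 2) encodes the alpha chain of the collagen-binding integrin alpha1beta1. Its signal was 2050.1, 2215, 2152 and 2268 in F344 and 367, 391, 399 and 321 in COP, a log2 difference of 2.56 ± 0.16 (SE; adjusted p = 2.40e-10 by limma). Here F344 stood alone, since LEW averaged 332 ± 78.4 (SD, n = 4) and DA 351 ± 69.0 (SD, n = 4). Itgb1, the beta chain that pairs with it, was higher by a log2 difference of 0.27 ± 0.06 (SE; adjusted p = 0.00147 by limma), and its second probe set was not called.

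In another set of rises COP stood alone. Ube2d1 (chromosome 20), a ubiquitin-conjugating enzyme, read 2416, 1982, 2302 and 2459 in F344 and 414, 651, 553 and 583 in COP, while LEW averaged 1489 ± 189 (SD, n = 4) and DA 1673 ± 171 (SD, n = 4). The F344 minus COP difference was 2.07 ± 0.12 (log2, SE; adjusted p = 8.64e-11 by limma), and the second probe set of the gene was also called, at 1.38. Ms4a7, a membrane protein of the MS4A family, read 859, 709.7, 776 and 707 against 253, 255, 175 and 179.7, a log2 difference of 1.84 ± 0.15 (SE; adjusted p = 1.77e-08 by limma). Anks1b and Haghl also had LEW and DA on the F344 side of the midpoint, with log2 differences of 1.84 ± 0.34 and 1.87 ± 0.33 (SE) and COP means of 94.0 and 84.6, under the filter's signal of 174. Msmp, a small secreted protein for which LEW lay on the COP side, read 583, 806, 754 and 713 against 231, 305, 55.3 and 67.5, and with its wide COP spread had the largest adjusted p of the 14 rises, 0.00973 by limma.

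Lcn2 (chromosome 3) showed the largest fall. It encodes lipocalin 2, an iron-siderophore-binding protein stored in the granules of neutrophils. F344 arrays read 878, 817, 831 and 812 and COP arrays 15023, 17135, 18109 and 18374. The ranges are far apart and narrow, and the log2 difference was -4.36 ± 0.07 (SE; adjusted p = 9.37e-21 by limma), a 20.5-fold higher signal in COP. LEW averaged 12526 ± 651 (SD, n = 4) and DA 1023 ± 42.2 (SD, n = 4), so LEW lay with COP and DA with F344.

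Setd1b (chromosome 12), the catalytic subunit of a histone lysine methyltransferase complex, read 133, 134, 279 and 177 in F344 and 3333, 3496, 3273 and 3480.4 in COP. Its log2 difference was -4.30 ± 0.16 (SE; adjusted p = 8.00e-14 by limma). Mx2 (chromosome 11), an interferon-induced GTPase with antiviral action, read 102, 71.6, 36.9 and 58.5 in F344 and 746, 1302, 1076 and 1695 in COP, a log2 difference of -4.19 ± 0.28 (SE; adjusted p = 7.97e-10 by limma). The F344 signals overlapped those of the pancreas gene Ins2 (5.49 to 94.6), so the size of the Mx2 difference is set against a level not told from background. A second Mx2 probe set, under the filter, showed 0.16. For Mx2, COP stood apart from the other strains, with LEW at 69.2 ± 15.3 (SD, n = 4) and DA at 222 ± 18.4 (SD, n = 4); for Setd1b, F344 did, with LEW at 1919.5 ± 176 and DA at 2082 ± 311 (SD, n = 4 each).

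Low levels in F344 alone recurred among the falls. Cyp4v3 (chromosome 16), a cytochrome P450 that hydroxylates fatty acids, read 77.7, 144, 90.8 and 102 in F344 and 1195, 1194, 1151 and 1407 in COP. Its log2 difference was -3.61 ± 0.16 (SE; adjusted p = 7.76e-13 by limma). Slc3a1 (chromosome 6), the heavy chain of a cystine and dibasic amino acid transporter, read 202, 219.6, 169 and 206 against 1176, 1207, 1309 and 1305, a log2 difference of -2.65 ± 0.10 (SE; adjusted p = 5.92e-14 by limma). Both genes had LEW and DA means above 1000 signal units, on the COP side. Hyou1, a chaperone of the endoplasmic reticulum, Hpse, the heparan sulphate-cleaving heparanase, the zinc finger gene Zfp347, Sowaha and Vof16 also had LEW and DA on the COP side, with log2 differences between -2.26 and -1.91 and limma adjusted p of at most 6.55e-05.

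Abca1 (chromosome 5) exports cholesterol from cells to lipoproteins. The probe set with the highest signal read 574, 507, 563 and 656 in F344 and 3770.5, 2929, 2946 and 2981 in COP, a log2 difference of -2.45 ± 0.11 (SE; adjusted p = 9.76e-13 by limma). Its 3 other kept probe sets disagreed: one was lower in F344, at -1.32 ± 0.22 (SE; adjusted p = 2.12e-04 by limma), one was higher, at 0.65 ± 0.12 (SE; adjusted p = 7.17e-04 by limma), and one was not called, at 0.52 ± 0.19. With the mean of the 4 probe sets the difference was -0.65. Whether sequence differences between the strains lie under the probes of this or any other gene was not tested.

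Crim1, a transmembrane protein that binds bone morphogenetic proteins, read 411, 409, 385 and 499 in F344 and 2199, 2118, 2342 and 2076 in COP, with a log2 difference of -2.36 ± 0.10 (SE; adjusted p = 7.17e-13 by limma). Srsf3, a splicing factor, read 248, 183, 248 and 167 against 1027, 1102, 624 and 873, with a log2 difference of -2.09 ± 0.24 (SE; adjusted p = 1.51e-06 by limma). In both, LEW lay with F344 and DA with COP. The plot of signals by array shows 16 of these genes in all 4 strains.

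**Figure D3:**
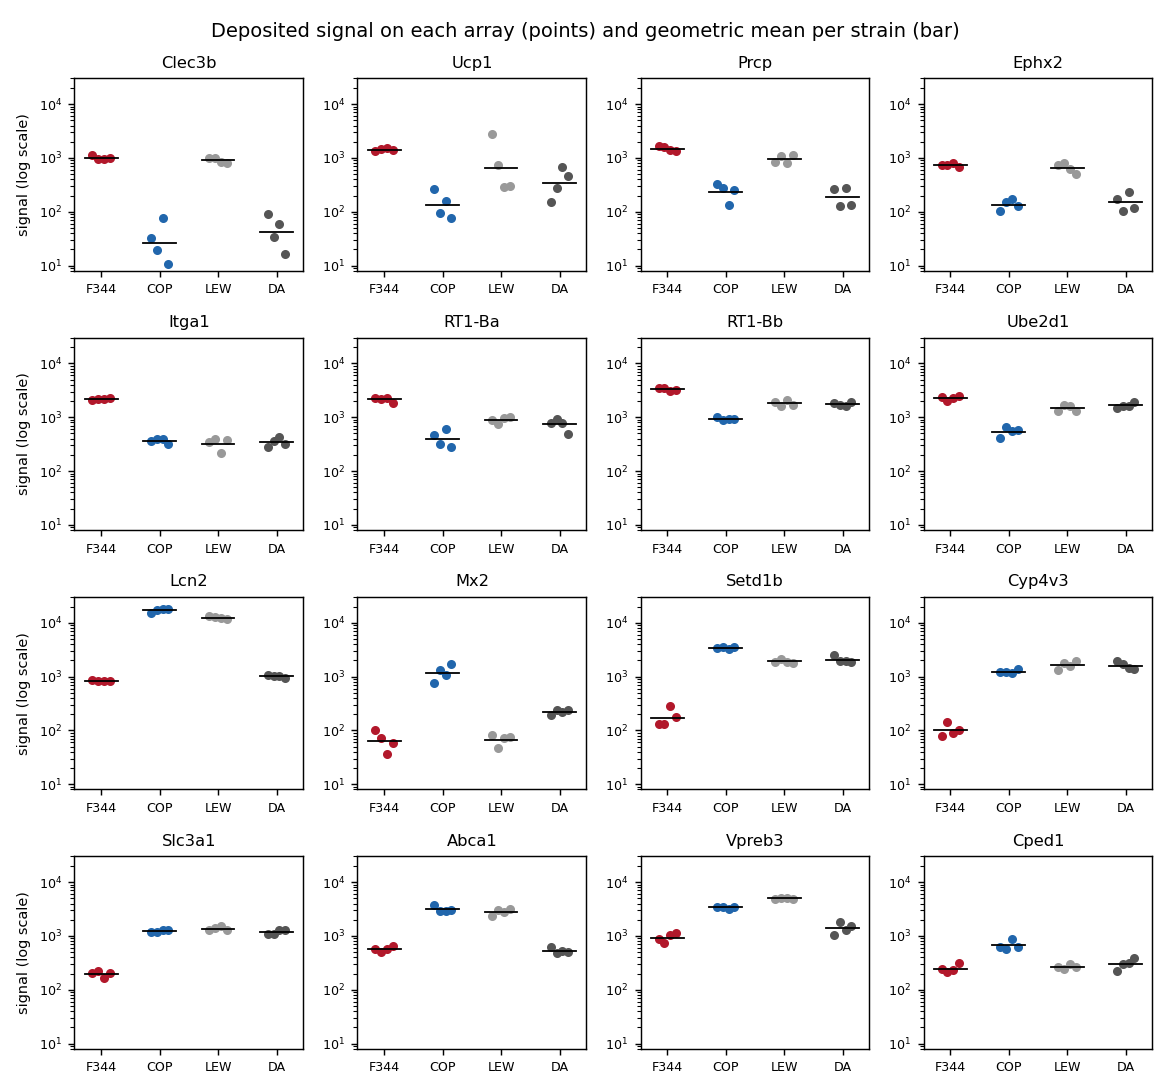
Deposited signal (vertical axis, log scale) on each of the 16 arrays for 16 named genes; points are arrays, coloured by strain, and bars are geometric means of 4 arrays. F344 and COP separate in every panel, which was a condition for naming these genes. LEW and DA fall with F344, with COP, between them or outside both depending on the gene. Examples are Clec3b (LEW with F344, DA with COP), Lcn2 (LEW with COP, DA with F344) and Cyp4v3 (the LEW and DA bars above both).

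The position of LEW and DA was described for all 2218 called genes, with no test. In 719 genes (32.4%) both means lay on the COP side of the midpoint between F344 and COP, and in 599 (27.0%) both lay on the F344 side. LEW lay with F344 and DA with COP in 498 genes (22.5%), and the reverse held in 402 (18.1%). Among the 149 genes that differed 2-fold or more, those 4 shares were 32.2%, 26.8%, 29.5% and 11.4%.

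MHC class II genes rose together in F344. Class II molecules are alpha-beta pairs on antigen-presenting cells (B cells, macrophages and dendritic cells) that show peptides to helper T cells, and their promoters carry shared X and Y boxes bound by factors that the coactivator Ciita needs. Of 10 tested class II presentation genes, 7 were higher in F344 and 0 lower, with a median log2 difference of 0.62, against 10.4% higher and a median of 0.00 over all genes. At an unadjusted p under 0.05 the counts were also 7 and 0 (limma), and the count was 7 under every alternative run, also without COP replicates 1 and 2. The promoters of 5 of those 7 are shown because they hold a shared short motif.

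Below are the 150 bases before the start of each gene, 5′ to 3′ on the gene's strand, from the RefSeq promoter table of GRCr8, the assembly of a Brown Norway rat and so of neither strain. Capitals mark a match to GATTGG, the Y box core, on either strand (CCAATC is its reverse), or to an X box pattern on the same strand or its reverse (AG, any base, AAC, any base, GATG).
RT1-Ba (chr20:4576907-4577056, + strand): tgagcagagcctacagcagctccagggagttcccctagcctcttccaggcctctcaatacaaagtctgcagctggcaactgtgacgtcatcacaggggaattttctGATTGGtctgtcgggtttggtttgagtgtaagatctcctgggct
RT1-Bb (chr20:4604119-4604268, - strand): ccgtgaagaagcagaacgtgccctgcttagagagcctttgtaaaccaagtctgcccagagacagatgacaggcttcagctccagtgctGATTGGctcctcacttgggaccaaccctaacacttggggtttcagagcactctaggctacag
RT1-Da (chr20:4515265-4515414, + strand): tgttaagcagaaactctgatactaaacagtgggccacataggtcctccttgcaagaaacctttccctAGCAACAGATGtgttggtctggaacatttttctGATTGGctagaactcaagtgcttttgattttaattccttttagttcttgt
RT1-Db1 (chr20:4560163-4560312, - strand): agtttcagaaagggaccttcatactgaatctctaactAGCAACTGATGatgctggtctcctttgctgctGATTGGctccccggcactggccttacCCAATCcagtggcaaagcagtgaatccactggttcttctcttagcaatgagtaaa
RT1-DMa (chr20:4712336-4712485, - strand): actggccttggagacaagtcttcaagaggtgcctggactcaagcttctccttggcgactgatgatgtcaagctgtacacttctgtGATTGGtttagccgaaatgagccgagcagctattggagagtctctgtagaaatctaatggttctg

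Over the 300-base windows of the table, 250 bases before the start to 50 after, GATTGG was found on either strand in 4956 of 33469 promoters (14.8%). It was found in 5 of the 6 class II genes called higher that have a promoter in the table, the 5 shown. It was found in 0 of the 2 list members that were not called and have a promoter there, Ctss and Cd86. Those 2 encode a protease and a costimulatory ligand rather than class II chains, so the counts do not tie the motif to the calls. The longer CTGATTGG, which contains it, was found in 1172 promoters (3.50%) and in 4 of those 6 genes. The X box pattern was found in 83 promoters (0.248%) and in RT1-Da and RT1-Db1. These matches describe the reference letters and are not measured sites.

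RT1-Ba and RT1-Bb are the alpha and beta chains of the RT1.B molecule. RT1-Ba read 2327, 2142, 2272 and 1875 in F344 and 468, 317, 613 and 280.4 in COP, with a log2 difference of 2.43 ± 0.20 (SE; adjusted p = 1.86e-08 by limma). RT1-Bb read 3484, 3529, 3139 and 3217 against 992, 889, 944 and 942, with a log2 difference of 1.83 ± 0.08 (SE; adjusted p = 1.02e-12 by limma). Arrays of the strains that did not overlap were a condition for naming these genes. LEW and DA lay between, at 909 ± 117 and 753 ± 182 (SD, n = 4 each) for RT1-Ba. Another RT1-Ba probe set, under the filter and not tested, pointed the other way, with means of 41.5 in F344 and 239.9 in COP. Further RT1-Ba probe sets under the filter were level, with means of 100 in F344 and 101 in COP, and of 175 and 171. The other RT1-Bb probe set, also under the filter, averaged 40.3 in F344 and 47.2 in COP.

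The RT1.D chains RT1-Da and RT1-Db1 differed by 1.59 ± 0.07 (log2, SE; adjusted p = 3.95e-13 by limma) and 1.57 ± 0.08 (SE; adjusted p = 1.07e-11 by limma). RT1-Da averaged 7961 ± 184 in F344 and 2648 ± 201 in COP (SD, n = 4 each), and a second RT1-Db1 probe set differed by 3.80, at means of 803 and 72.1. Cd74, the invariant chain that guides class II molecules to endosomes, averaged 7038 ± 299.8 against 4585 ± 214 (SD, n = 4 each), a log2 difference of 0.62 ± 0.06 (SE; adjusted p = 4.80e-07 by limma). RT1-DMa and RT1-DMb, which load the peptide, differed by 0.48 and 0.63. Ciita itself had a difference of 0.05, the lysosomal protease Ctss 0.05 and the costimulatory ligand Cd86 0.24, none of them called. While these genes were higher in F344, B lymphoid markers were lower and macrophage markers differed in both directions, as given below; their part in the class II result was not tested.

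MHC class I genes went both ways. Class I molecules present peptides cut by the immunoproteasome and carried into the endoplasmic reticulum by the Tap1 and Tap2 pump. Of 18 tested genes 3 were higher in F344, 6 lower and 9 not called, with a median of -0.03. RT1-A, a class I heavy chain, read 1037, 1051, 908 and 1365 in F344 and 329, 285, 285 and 357 in COP, a log2 difference of 1.79 ± 0.18 (SE; adjusted p = 4.18e-07 by limma). Tap2 fell by 1.20 ± 0.12 on the log2 scale (SE; adjusted p = 1.96e-07 by limma), from 1789 ± 166 in COP to 785 ± 124 in F344 (SD, n = 4 each), while Tap1 had a difference of -0.05 and was not called. The immunoproteasome subunits Psmb8 and Psmb9 both differed by -0.45 and Psmb10 by -0.21. RT1-CE10 was lower by 0.62 and RT1-CE12 higher by 0.43, and signals of such near-identical class I copies are uncertain. Without F344 replicate 1 the count of higher genes was 1.

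Interferon-response genes also divided. Of 29 tested genes 4 were higher in F344 and 8 lower, with a median of -0.15. The lower genes included Mx2 (above), Mx1, the RNA-binding Ifit1 and Ifit3, the RNA sensor Ifih1 and the transcription factor Stat2. Ifit1 averaged 218 ± 41.6 in F344 and 357 ± 37.8 in COP (SD, n = 4 each), a log2 difference of -0.73 ± 0.16 (SE; adjusted p = 0.00341 by limma). The higher genes were Cxcl9, the transcription factor Irf1, Ifi44l and the guanylate-binding GTPase Gbp2. Cxcl9, a chemokine for activated T cells, read on average 962 ± 43.6 against 486 ± 92.2 (SD, n = 4 each), with a 95% confidence interval of the log2 difference of 0.70 to 1.31 (adjusted p = 4.31e-05 by limma). Isg15, Irf7, Usp18 and Oasl had differences between -0.45 and -0.39 and were not called. The count of lower genes was 5 without F344 replicate 2 or COP replicate 4, 11 without COP replicate 1 and 4 without COP replicates 1 and 2. It was 2 with the filter raised to the 60th percentile, which drops dimmer genes. COP arrays 2 and 4 stood highest, with list means of 0.29 and 0.33 against -0.06 and -0.04 on COP arrays 1 and 3.

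The interferon-stimulated response element of such promoters was searched as GAAA, any 2 bases, GAAA on both strands. It was found in 1312 of 33469 promoters (3.92%), in 3 of 6 genes called lower, in 2 of 4 called higher and in 10 of 13 not called. Shown are the 100 bases before the start (RefSeq, GRCr8) of Ifit3 and Ifih1, lower in F344, and Gbp2, higher in F344, with the match in capitals (TTTC, any 2 bases, TTTC where it lies on the reverse strand).
Ifit3 (chr1:241527226-241527325, + strand): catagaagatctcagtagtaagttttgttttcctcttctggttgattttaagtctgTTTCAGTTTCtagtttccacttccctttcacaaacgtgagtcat
Ifih1 (chr3:67683969-67684068, - strand): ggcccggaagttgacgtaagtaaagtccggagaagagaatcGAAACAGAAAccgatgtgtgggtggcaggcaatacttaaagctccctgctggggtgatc
Gbp2 (chr2:234005627-234005726, + strand): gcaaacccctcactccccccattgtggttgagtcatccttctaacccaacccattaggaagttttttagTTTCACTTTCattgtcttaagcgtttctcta

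Genes of neutrophil granules and of the neutrophil oxidase were lower in F344. Of 21 tested genes 0 were higher and 13 lower (limma; 1 and 16 at an unadjusted p under 0.05), with a median of -0.33. Each array's mean over the list was between -0.35 and -0.26 in F344 and between 0.28 and 0.38 in COP. Besides Lcn2, Camp, the cathelicidin peptide, averaged 11228 ± 458 in F344 and 23176 ± 870.1 in COP (SD, n = 4 each), a log2 difference of -1.05 ± 0.06 (SE; adjusted p = 1.91e-11 by limma). Mmp8, the neutrophil collagenase, differed by -1.17 ± 0.08 (SE; adjusted p = 4.51e-10 by limma). The oxidase subunits Cybb, Cyba, Ncf1 and Ncf4 differed by -0.74, -0.50, -1.24 and -0.63, and the granulocyte receptor Csf3r by -0.52. S100a8 differed by only -0.26 ± 0.06 (SE; adjusted p = 0.00636 by limma), and its partner S100a9, the defensins Defa5 and Defa7 and Mmp9 were not called. The lower count was 13 without each array in turn and 11 without COP replicates 1 and 2, and 1 gene was called higher without COP replicate 1. In whole tissue, fewer cells of a type and less RNA per cell cannot be told apart, here and in every cell-type list below.

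B lymphoid genes were lower in F344 as well. Of 15 tested genes 12 were lower and 1, the inhibitory receptor Cd22, higher, with a median of -0.69, the lowest of the 34 lists. List means were -0.37 to -0.30 on the F344 arrays and 0.21 to 0.40 on the COP arrays. Vpreb3, which assists assembly of the pre-B cell receptor, read 885, 741, 1029 and 1138 in F344 and 3421, 3526, 3181 and 3523 in COP, a log2 difference of -1.86 ± 0.13 (SE; adjusted p = 1.72e-09 by limma). Cd79b, a signalling chain of the B cell receptor, averaged 1209.7 ± 94.2 against 2503 ± 261 (SD, n = 4 each), a log2 difference of -1.05 ± 0.10 (SE; adjusted p = 1.73e-07 by limma). The kinase Blk differed by -1.20, the coactivator Pou2af1 by -1.06, the CD20 gene Ms4a1 by -0.87 and the transcription factor Ebf1 by -0.40. Il7r and Bank1 were not called, at -0.03 and -0.23. The 12 lower calls became 11 to 12 without each array in turn and 10 without COP replicates 1 and 2. Cd22 was not called without COP replicate 1 or without COP replicate 4.

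Among megakaryocyte and platelet genes, 13 of 22 were lower in F344 and 1, the tubulin Tubb1, higher, with a median of -0.39. Pf4, platelet factor 4, averaged 9485 ± 149.8 in F344 and 24810.0 ± 2611 in COP (SD, n = 4 each), a log2 difference of -1.38 ± 0.07 (SE; adjusted p = 1.07e-11 by limma). Ppbp, the other main platelet chemokine, differed by -0.67, the thrombin-receptor family gene F2rl2 by -0.90, the exchange factor Rasgrp2 by -0.65 and the glycoprotein Gp9 by -0.53. The integrin chains Itga2b and Itgb3, which form the fibrinogen receptor, had differences of -0.17 and 0.09 and were not called.

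Mast cell, basophil and eosinophil genes went in opposite directions within 1 list of 19, with 8 higher and 2 lower. The 2 lower genes are granule proteins of eosinophils. Epx, eosinophil peroxidase, averaged 5924 ± 197 in F344 and 16747 ± 1398 in COP (SD, n = 4 each), a log2 difference of -1.50 ± 0.12 (SE; adjusted p = 2.02e-08 by limma), and Prg2, the major basic protein, differed by -1.08 ± 0.09 (SE; adjusted p = 1.94e-08 by limma). Higher in F344 were the lipoxygenase Alox15, at 1.19 ± 0.08 (SE; adjusted p = 9.07e-10 by limma), and the mast cell and basophil proteases Cpa3, Mcpt8, Mcpt1, Mcpt10, Tpsab1 and Tpsb2, between 0.36 and 0.89. The mast cell receptor subunits Ms4a2 and Fcer1a were not called. Without COP replicates 1 and 2 the counts were 5 higher and 3 lower.

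Monocyte and macrophage genes were called in both directions, 5 higher and 7 lower of 24, with a median of 0.09. The Fc receptors Fcgr3a and Fcgr2b moved apart: Fcgr3a averaged 718 ± 27.1 in F344 and 314 ± 41.4 in COP, and Fcgr2b 599 ± 59.5 and 1279.8 ± 84.5 (SD, n = 4 each). Their log2 differences were 1.20 ± 0.13 and -1.10 ± 0.09 (SE; adjusted p = 1.26e-06 and 2.02e-08 by limma). The chemokine receptor Ccr2 of circulating monocytes differed by -1.13, Itgam by -0.68 and Cd68 by -0.24, while the tissue macrophage genes Mrc1, Adgre1 and C1qa were higher by 0.43, 0.45 and 0.20. Csf1r, Cd163, C1qb and Cd14 were not called, at -0.02 to 0.07. Without COP replicate 1 or COP replicate 3 the count of higher genes was 3.

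Chemokines and cytokine receptors gave 5 higher and 12 lower of 40. Il1r2, a decoy receptor for interleukin 1, averaged 372 ± 108 in F344 and 1059 ± 169 in COP (SD, n = 4 each), a log2 difference of -1.55 ± 0.20 (SE; adjusted p = 6.71e-06 by limma). The CC chemokines Ccl6 and Ccl9 differed by -1.47 and -0.93 and the receptor Il6r by -1.01, whereas Ccl5 was higher by 1.19 and Il18 by 0.63. Of 11 T and natural killer cell genes 2 were higher, Ccl5 and the T cell receptor chain Cd3g at 0.74, and 2 lower, Nkg7 at -0.74 and the kinase Lck at -0.53. Erythroid genes, by contrast, were called in 5 of 34 (3 higher, 2 lower), with a median of 0.01. Cpox, an enzyme of haem synthesis, was higher by 0.51 ± 0.08 (SE; adjusted p = 1.29e-04 by limma), and the carbonic anhydrase Car1 lower by 0.32, while Hbb, Alas2 and Gata1 were not called. The lower count was 1 without COP replicate 2 or COP replicate 4.

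Cell cycle genes were lower in F344 in 12 of 48 and higher in 3, with a median of -0.09. Aurkb, the mitotic kinase of the chromosomal passenger complex, averaged 1956 ± 86.5 in F344 and 3439 ± 315 in COP (SD, n = 4 each), a log2 difference of -0.81 ± 0.08 (SE; adjusted p = 3.79e-07 by limma), and its partner Birc5 differed by -0.56. The spindle checkpoint kinases Ttk and Bub1b differed by -0.65 and -0.35, and Top2a by -0.32. A second kept Ttk probe set was not called, at -0.31. Mki67, Pcna, Ccnb1 and Mcm2 were not called, at -0.10 to 0.03. The higher count was 1 without F344 replicate 2, COP replicate 1 or COP replicate 2. Without COP replicates 1 and 2 the counts were 8 lower and 0 higher.

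**Figure D4:**
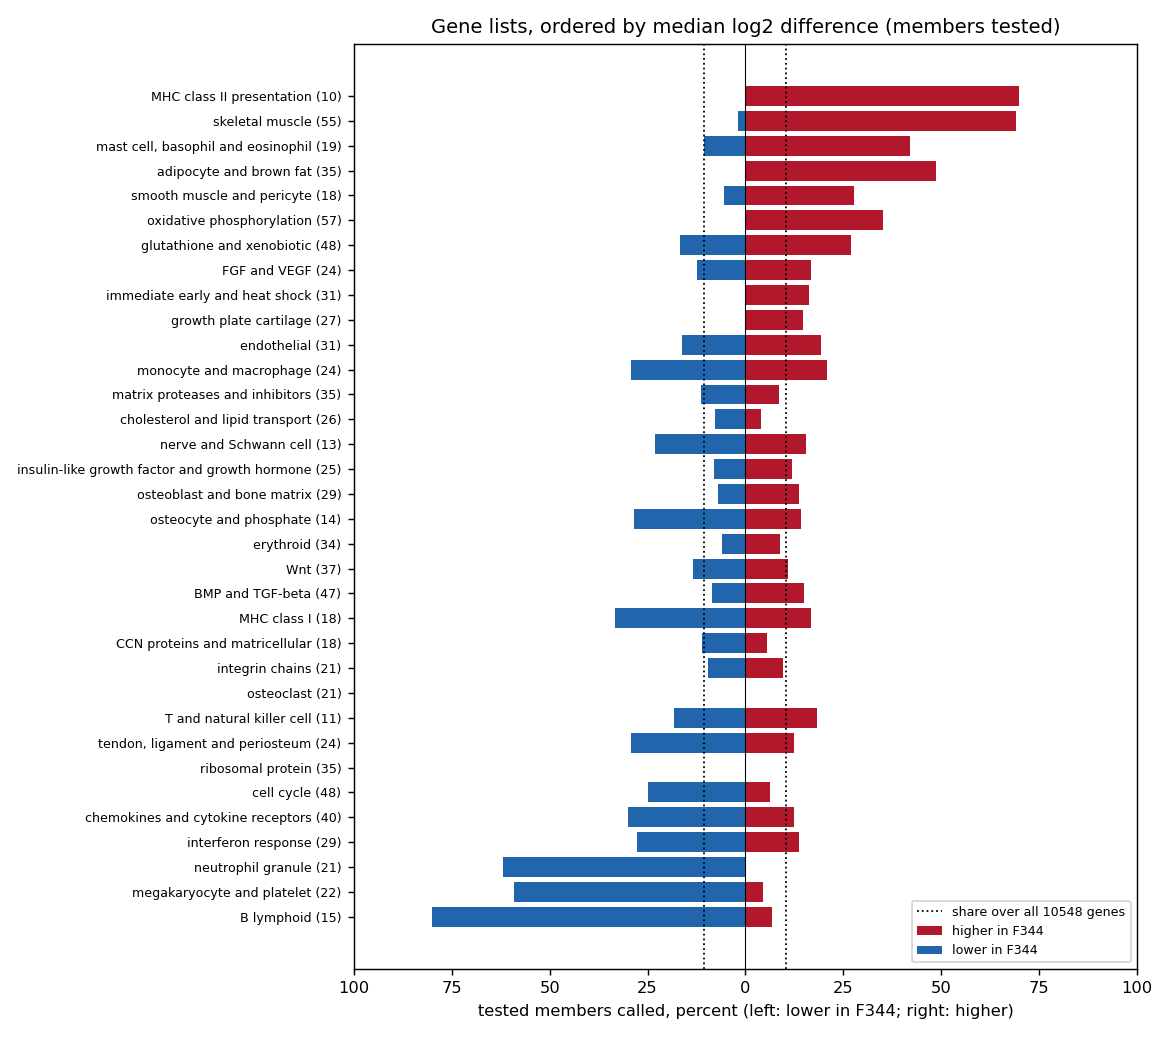
Share of tested members of each of 34 gene lists that were called higher (red, to the right) or lower (blue, to the left) in F344, in percent; lists are ordered by their median log2 difference and the number tested is in brackets. Dotted lines mark the shares over all 10548 genes, 10.4% higher and 10.6% lower. MHC class II, skeletal muscle and adipocyte lists reach furthest to the right and B lymphoid, neutrophil and megakaryocyte lists furthest to the left.

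Of 29 osteoblast and bone matrix genes 4 were higher and 2 lower, 20.7% in all against 21.0% of all genes, with a median of 0.03, and Col1a1, Bglap (osteocalcin), Ibsp, Spp1 and Alpl were not called. Cthrc1, a secreted collagen-regulating protein, averaged 13868 ± 154 in F344 and 8853 ± 1092 in COP (SD, n = 4 each), a log2 difference of 0.66 ± 0.10 (SE; adjusted p = 6.00e-05 by limma), and Panx3, a channel of osteoblasts and chondrocytes, was higher by 0.54. Alpk3 was higher by 0.60, and read 1236, 1591, 1945 and 2071 on COP replicates 1 to 4. Its lowest COP readings were on the arrays with the lowest muscle list means (-0.50, -0.32, -0.01 and -0.02 on COP replicates 1 to 4). Whether its signal came from bone cells or from muscle was not tested. Alpk3 was not called without COP replicate 1, nor without COP replicates 1 and 2. Mepe, an osteocyte matrix phosphoglycoprotein, was lower by 0.47 and was not called without COP replicates 1 and 2; periostin (Postn) was lower by 0.16 and lost its call without several single arrays. Leaving out any one array other than F344 replicate 4 gave a lower count of 1, and leaving out COP replicates 1 and 2 gave 0.

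In the osteocyte and phosphate list 2 of 14 were higher and 4 lower. The lower genes included Hyou1, which is, as given above, a chaperone of the endoplasmic reticulum rather than an osteocyte marker. Enpp1, which makes the mineralization inhibitor pyrophosphate, averaged 2125 ± 74.8 in F344 and 4206 ± 489.9 in COP (SD, n = 4 each), a log2 difference of -0.98 ± 0.10 (SE; adjusted p = 3.74e-07 by limma), while Ankh, which exports pyrophosphate, was higher by 0.35 ± 0.08 (SE; adjusted p = 0.00493 by limma). Dmp1 and Phex were not called, and the higher count was 4 without COP replicates 1 and 2. None of 21 osteoclast genes was called by limma, and 0 passed an unadjusted p of 0.05. The resorption enzymes Acp5 and Ctsk had differences of -0.02 and -0.04, and the differences of the list ran from -0.31 to 0.31. Without COP replicate 1 a single osteoclast gene was called.

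Growth plate cartilage genes gave 4 higher and 0 lower of 27 (limma; 5 and 0 at an unadjusted p under 0.05), with a median of 0.09. Papss2, which makes the sulphate donor for proteoglycans, averaged 4076 ± 119 in F344 and 2289 ± 535 in COP (SD, n = 4 each), a log2 difference of 0.86 ± 0.14 (SE; adjusted p = 9.47e-05 by limma). A second kept Papss2 probe set was not called, at 0.31 ± 0.20 (SE). The collagen chains Col9a3 and Col11a2 were higher by 0.71 and 0.39, and Col2a1, Acan and Col10a1 were not called. Its counts moved with single arrays of both strains. It had, without COP replicates 1 and 2, 7 higher genes and a median of 0.35. That fit keeps COP replicates 3 and 4, whose cartilage means were the lowest of the COP arrays. Without COP replicate 4 the list had 2 higher and 1 lower and a median of -0.03. The count of higher genes was 2 without F344 replicate 1, F344 replicate 2 or COP replicate 3.

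Tendon, ligament and periosteum genes gave 3 higher and 7 lower of 24. Apart from Clec3b, Aspn and the collagen cross-linker Lox were higher by 0.49 and 0.27. Dpp4 averaged 1020.0 ± 55.0 in F344 and 1746 ± 123 in COP (SD, n = 4 each), a log2 difference of -0.77 ± 0.08 (SE; adjusted p = 8.04e-07 by limma), and Pi16, Ly6c, Tnmd, Col12a1 and Col6a1 were lower by 0.73, 0.70, 0.38, 0.34 and 0.24. The lower count was 4 without COP replicate 1 and 3 without COP replicates 1 and 2.

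Skeletal muscle genes were higher in F344 in 38 of 55 and lower in 1, with a median of 0.45. Cacna1s, the calcium channel that couples the muscle membrane to contraction, read on average 1644 ± 135 in F344 and 754 ± 278 in COP (SD, n = 4 each), a log2 difference of 1.20 ± 0.20 (SE; adjusted p = 2.07e-04 by limma). Mef2c, a muscle transcription factor that B cells and osteocytes also use, differed by 0.97 ± 0.08 (SE; adjusted p = 1.63e-08 by limma) and the fast myosin Myh4 by 0.88 ± 0.10 (SE; adjusted p = 9.68e-07 by limma). Actin Acta1 and the fast myosins Myh1 and Myh2 were not called, at 0.02, 0.19 and 0.25. The higher count was 26 to 32 without any 1 of the F344 arrays, 23 without COP replicate 1, 20 without COP replicate 2, 39 without COP replicate 3 or COP replicate 4 and 25 without the intensity trend. Without both COP replicates 1 and 2 it was 11, with a median of 0.20. The lower count was 2 without COP replicate 1. The amount of muscle on the dissected pieces was not measured, and its part in this result was not tested.

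Subunits of oxidative phosphorylation followed a like pattern by array, with list means of -0.22, -0.12, -0.01 and -0.01 on COP replicates 1 to 4 and 0.06 to 0.11 in F344. Of 57 genes 20 were higher and 0 lower (limma; 34 and 0 at an unadjusted p under 0.05), with a median of 0.18. Ndufb8 and Ndufv2 of complex I were higher by 0.50 and 0.38 and Cyc1 of complex III by 0.33. Without COP replicates 1 and 2 none of the 57 was called, and the count was 8 without COP replicate 1, 11 without COP replicate 2 10 without F344 replicate 2 or F344 replicate 3, and 12 without F344 replicate 4. None of 35 ribosomal protein genes was called by limma (0 higher and 4 lower at an unadjusted p under 0.05), and 1 was lower without COP replicate 4.

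Adipocyte and brown fat genes were higher in F344 in 17 of 35 and lower in 0 (limma; 21 and 0 at an unadjusted p under 0.05), with a median of 0.32. Besides Ucp1, the brown fat lipid droplet protein Cidea averaged 1133 ± 78.6 in F344 and 508 ± 82.8 in COP (SD, n = 4 each), a log2 difference of 1.17 ± 0.21 (SE; adjusted p = 4.34e-04 by limma). The fatty acid desaturase Scd differed by 1.35 ± 0.20 (SE; adjusted p = 4.64e-05 by limma), the droplet coat protein Plin1 by 0.59, fatty acid synthase Fasn by 0.51 and adiponectin Adipoq by 0.52. Pparg and Cebpa, the regulators of fat cell formation, were not called, at 0.04 and -0.03. Each COP array lay below each F344 array in the list mean (-0.31 to -0.06 against 0.21 to 0.23), and 11 genes were called without COP replicates 1 and 2.

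Vascular lists were mixed. Of 31 endothelial genes 6 were higher and 5 lower. Cldn5, the tight junction protein of endothelium, averaged 1310.0 ± 177 in F344 and 4274 ± 399 in COP (SD, n = 4 each), a log2 difference of -1.71 ± 0.12 (SE; adjusted p = 8.08e-10 by limma), while the adhesion molecule Pecam1 was higher, at 1035 ± 111 against 662 ± 53.2 (SD, n = 4 each) and a log2 difference of 0.64 ± 0.11 (SE; adjusted p = 2.38e-04 by limma). Tek, Emcn and Eng were not called. The lower count was 3 without F344 replicate 1, F344 replicate 3 or COP replicate 3. Smooth muscle and pericyte genes were higher in 5 of 18 and lower in 1, with 1 higher and 0 lower without COP replicates 1 and 2. Its higher count was 3 without F344 replicate 2 or COP replicate 4 and 2 without F344 replicate 3, and its lower count was 0 without F344 replicate 2, F344 replicate 3, COP replicate 1 or COP replicate 4.

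In the insulin-like growth factor list 3 of 25 genes were higher and 2 lower, with a median of 0.04. Igf2, the fetal growth factor, averaged 9072 ± 668 in F344 and 5163 ± 551 in COP (SD, n = 4 each), a log2 difference of 0.82 ± 0.10 (SE; adjusted p = 5.10e-06 by limma), and Socs2, the feedback inhibitor of growth hormone signalling, 203 ± 45.9 against 469 ± 35.0 (SD, n = 4 each), a difference of -1.23 ± 0.25 (SE; adjusted p = 0.00114 by limma). Igf1, Igf1r and Ghr were not called, at -0.05, 0.12 and 0.08. The lower count of that list was 4 without F344 replicate 3.

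Of 47 BMP and TGF-beta genes 7 were higher and 4 lower, with a median of -0.01. Among the ligands, Bmp3 averaged 473 ± 108 in F344 and 1083 ± 193 in COP (SD, n = 4 each), a log2 difference of -1.21 ± 0.18 (SE; adjusted p = 6.24e-05 by limma), and Bmp4 differed by -0.71 ± 0.11 (SE; adjusted p = 1.23e-04 by limma). The receptor Bmpr1a was lower by 0.52, and the secreted antagonists Nog and Fst were higher by 0.74 and 0.54. A second kept Fst probe set was not called, at 0.36. The ligands Bmp2, Bmp6 and Bmp7 and the target genes Id1 to Id3 were not called. Without COP replicate 4 the higher count was 4, and the lower count was 2 without F344 replicate 2 or COP replicate 3.

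In the Wnt list 4 of 37 were higher and 5 lower, with a median of 0.00. The co-receptor Lrp6 and the neighbour of Wnt16, Cped1, were lower (given with chromosome 4 below) and Lrp4, which binds the inhibitor sclerostin, was higher, at 2259 ± 299.8 against 1315 ± 181 (SD, n = 4 each), a log2 difference of 0.78 ± 0.14 (SE; adjusted p = 3.80e-04 by limma). Sfrp1 and Sfrp4, secreted Wnt binders, differed by -0.48 and 0.34, and the nuclear factors Tcf7 and Lef1 by 0.46 and -0.31. Sfrp1 was not called without COP replicates 1 and 2. Axin2, a target gene, had a difference of 0.10 and was not called. The higher count was 2 without COP replicate 4, and the lower count 2 without COP replicates 1 and 2.

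Of 48 glutathione and xenobiotic genes 13 were higher and 8 lower, led by Ephx2 and Cyp4v3. Gstm1, a glutathione transferase, differed by -0.67 ± 0.11 (SE; adjusted p = 2.38e-04 by limma) and the quinone reductase Nqo1 by -0.43, while Gsta1 and Gstm7 were higher by 0.39 and 0.44. Without COP replicate 3 or COP replicate 4 the lower count was 5, and the higher count was 6 without COP replicates 1 and 2. The CCN proteins are secreted modulators of growth factors and integrins. Among 18 CCN and matricellular genes 1 was higher and 2 lower; Ccn3 averaged 4634 ± 229 in F344 and 7114 ± 491 in COP (SD, n = 4 each), a log2 difference of -0.62 ± 0.07 (SE; adjusted p = 2.34e-06 by limma). The lower count there was 1 without any single array other than F344 replicate 4. Among 26 cholesterol and lipid transport genes 1 was higher, Apoe at 0.57 ± 0.06 (SE; adjusted p = 1.52e-06 by limma), and 2 lower, Abca1 and the sterol regulator Srebf2 at -0.43; the higher count was 2 without COP replicate 1 or COP replicate 2 and 3 without both.

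Of 31 immediate early and heat shock genes 5 were higher and 0 lower (limma; 9 and 3 at an unadjusted p under 0.05), led by the stress factor Atf3 at 1.62 ± 0.27 (SE; adjusted p = 1.61e-04 by limma) and the phosphatase Dusp1 at 1.09 ± 0.13 (SE; adjusted p = 3.90e-06 by limma). A second kept Dusp1 probe set was called in the same direction, at 0.37 ± 0.13 (SE). Fos, Jun and Egr1 were not called, and without COP replicates 1 and 2 the higher count was 2. The lower count was 2 without COP replicate 1 and 1 without COP replicate 3. Nerve and Schwann cell genes gave 2 higher and 3 lower of 13, with Gfap at 0.98 and S100b at -0.57. The FGF and VEGF list gave 4 higher and 3 lower of 24, the matrix proteases 3 and 4 of 35 and the integrin chains 2 and 2 of 21. Matrix proteases called higher numbered 1 without F344 replicate 2 and 5 without COP replicate 1, and the lower count of the FGF and VEGF list was 1 without COP replicates 1 and 2.

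Chromosome 4 carries the locus the series was designed around. Of its 606 tested genes 113 were called (18.6%, against 21.0% of all genes), 52 higher and 61 lower in F344. By chromosome the share ran from 13.3% on the X to 31.5% on chromosome 13, leaving out the single gene tested on the Y. Along chromosome 4, in 6 consecutive blocks of 101 genes from Dnajb6 to Resf1, the called genes numbered 20, 26, 24, 13, 13 and 17. Without COP replicates 1 and 2, 71 of the 606 were called.

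**Figure D5:**
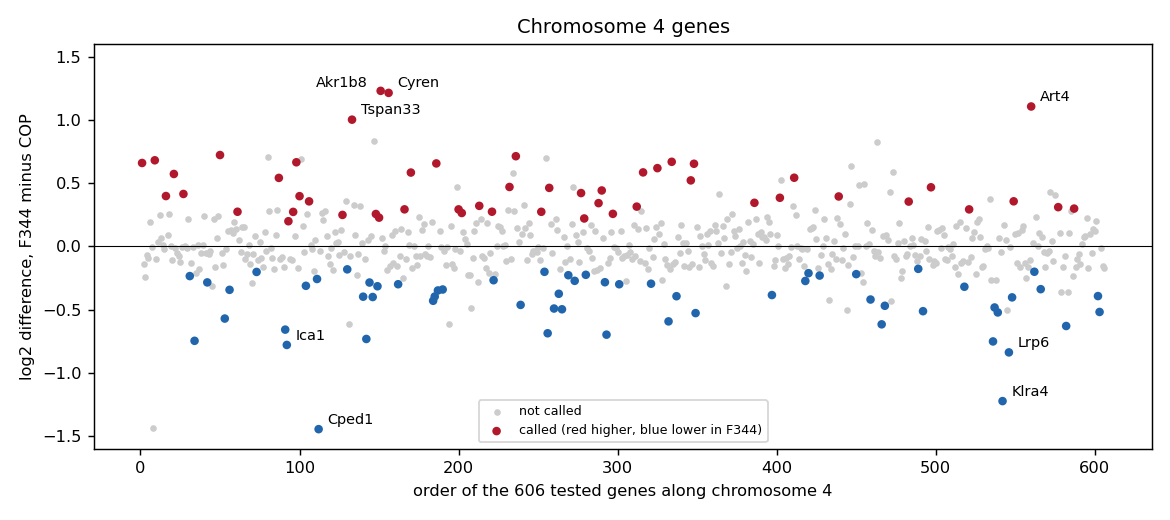
Log2 difference, F344 minus COP (vertical axis), of the 606 tested chromosome 4 genes in their order along the chromosome (horizontal axis); red and blue points are genes called higher or lower in F344 and the 8 largest changes with separate arrays are named. Calls lie along the whole chromosome, 20 to 26 in each of the first 3 blocks of 101 genes and 13 to 17 in each of the last 3.

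Cped1, a gene of unknown function beside Wnt16 at a locus linked with bone density in humans, showed the largest of the named chromosome 4 differences. It read 240.2, 213, 229.6 and 308 in F344 and 634, 564, 891 and 623 in COP, a log2 difference of -1.44 ± 0.18 (SE; adjusted p = 4.23e-06 by limma). COP stood apart from the other strains, with LEW at 270.1 ± 26.4 and DA at 306 ± 68.3 (SD, n = 4 each). Lrp6, which with a Frizzled receptor receives Wnt ligands, read 480.0, 471, 567 and 620.5 against 1047, 931, 848 and 982, a log2 difference of -0.84 ± 0.12 (SE; adjusted p = 4.07e-05 by limma). Here LEW lay with F344, at 561 ± 76.2, and DA with COP, at 847 ± 107 (SD, n = 4 each).

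Akr1b8, an aldo-keto reductase, read 1010.0, 1099, 1037 and 1118 in F344 and 466, 461, 439 and 451 in COP, a log2 difference of 1.23 ± 0.15 (SE; adjusted p = 2.84e-06 by limma), and F344 stood above both LEW and DA. Tspan33, a tetraspanin of blood cells, read 3879, 4333, 3432 and 4084 against 1810.4, 1987, 1998 and 2038, with a 95% confidence interval of the log2 difference of 0.81 to 1.19 (adjusted p = 7.73e-08 by limma). Its other 2 kept probe sets were called in the same direction, at 0.69 and 0.70. Klra4, a receptor of the natural killer cell family Ly49, read 547, 541, 481 and 477 against 1183, 1178, 1114 and 1297, a difference of -1.22 ± 0.13 (log2, SE; adjusted p = 8.51e-07 by limma).

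Cyren, a regulator of DNA end joining, and Art4, a blood group ADP-ribosyltransferase, were higher by 1.21 ± 0.18 and 1.11 ± 0.16 (log2, SE; adjusted p = 6.33e-05 and 3.75e-05 by limma), and Ica1 was lower by 0.78 ± 0.09 (SE; adjusted p = 4.04e-06 by limma). Separate arrays and a call in the reported fit were conditions for naming these 8 genes. Each was called under every alternative in which it was tested. Of the 113 called chromosome 4 genes, LEW and DA both lay on the COP side of the midpoint in 43 (38.1%) and both on the F344 side in 25 (22.1%).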

How the data were processed

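Per the labels, total RNA was labelled with biotin from 5 ug per sample and read on Affymetrix rat arrays. The deposited intensity values are linear signals, computed by the authors using MAS5, per the submitters' processing notes; its version, target level, present calls and any filtering are "not given in the sources used here". On these data the 2% trimmed mean was equal on all arrays, so the values had been scaled array by array; such scaling fixes the level of an array but not its shape, and dim signals stay noisy. Of 31099 probe sets 57 were controls. Of the other 31042, 20826 had 1 symbol in the platform annotation, 436 several (not named) and 9780 none; the gene IDs of 20758 matched RefSeq genes of GRCr8. No build is given for the array, so gene coordinates are not printed, apart from RefSeq promoters of GRCr8.

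Signals under 1 (138 values on the 8 arrays) were set to 1 and log2 taken as is. A filter at the 40th percentile of mean log2 over the 16 arrays (174 in signal) left 18625 probe sets; a gene high in only 1 strain passes through that strain. A linear model with a mean for each of the 4 strains was fitted over the 16 arrays with limma 3.58.1 under R 4.3.3 (12 residual degrees of freedom, empirical Bayes with intensity trend), and two-sided p-values of F344 minus COP were adjusted by Benjamini-Hochberg over the kept probe sets. "Called" means an adjusted p under 0.05. Where a gene had more than 1 kept probe set (2786 genes), the one of highest mean signal stood for it. Fold changes are on the log2 signal scale. The fit was also run on simulated data with independent noise and fewer changed probe sets than were called here. That simulation had no shifts shared by many genes of an array, such as those of the muscle list, so it cannot speak to them.

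Named genes had a call, 1 symbol and no overlap of the 4 against 4 arrays: the 14 largest rises and falls, the 8 largest on chromosome 4 and up to 4 in each of 34 lists; 1 numbered locus among the falls was skipped. Other list members are named as examples, with their values seen. The comparison, lists and named-gene rule were chosen with earlier results of these data known. Lists are described by counts and medians, with no set test. Alternatives were quantile normalization, median centring, a pseudocount of 19.3, the filter dropped or raised to the 60th percentile, the 8 arrays alone, no trend, robust moderation, array weights, a replicate block, probe sets averaged by gene, each array left out, and COP replicates 1 and 2 left out (added after seeing the data). Figures used matplotlib 3.10.9.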

Additional observations from a re-analysis of the deposited data

Results flagged for a closer look

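Within the 4 arrays of a strain, 9 of 278 groups of values had 1 array far from the other 3, by a gap test that chance alone passes in about 1 in 20 groups. The share flagged is thus smaller than chance alone would give. COP replicate 1 held 6 of the 9. On that array Abca1 read 3770.5 (other COP arrays 2929 to 2981), Zfp347 850.1 (949 to 954), Sowaha 343 (445 to 459.7), Fcgr2b 1154 (1309 to 1333), Epx 14671 (17283 to 17725) and Uchl1 419.6 (251 to 269). COP replicate 3 read 31.4 for Haghl (97.6 to 106) and 606 for Ccr2 (511 to 520.2). F344 replicate 4 read 5633 for Epx (5993 to 6059). Each of these genes kept the sign of its F344 minus COP difference without the array concerned, and Uchl1 was not called without COP replicate 1 (adjusted p = 0.116 by limma).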

How the results depend on the processing

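The number of called probe sets was 3085 to 4555 under the alternatives that kept all 8 arrays, and 2891 to 3294 without each array in turn (1344 to 1600 higher, 1534 to 1764 lower); genes numbered 1734 to 1982 (836 to 1006 higher, 898 to 983 lower) and chromosome 4 genes 90 to 110 without each array. Without COP replicates 1 and 2, chosen after seeing the data, 2179 probe sets were called (989 higher, 1190 lower), 1294 genes (605 and 689) and 71 on chromosome 4; fewer arrays enter that fit, and the cause was not otherwise tested. Deviations of same-numbered F344 and COP arrays from their strain means correlated at r of -0.0245 to 0.0482 over all kept probe sets. The labels do not say what the number stands for, and these r values cannot tell whether same-numbered samples shared a batch. With the replicate number as a block 3518 probe sets were called (1643 higher, 1875 lower). No named gene changed sign. Of 34 list medians 11 changed sign under at least 1 alternative, each within 0.09 of 0.00 in the reported fit. With median centring 1127 genes were higher and 963 lower, and 1816 and 1720 probe sets, which turns the balance of calls. For genes the balance also turned with quantile normalization (1166 higher and 1113 lower), the 8 arrays alone (1266 and 1242) and array weights (1387 and 1371). It turned too without COP replicate 3 (1004 and 978) or COP replicate 4 (1006 and 956). Of 139 named genes 113 were called under every alternative that tested them. The others lost their call under at least 1, among them Postn, Mepe, Nog, Col11a2, Sfrp1, Ndufb8, Ndufv2, Cyc1, Uchl1 and Ifit3. Of 68 list counts 29 stayed within 1.5 times under all 19 alternatives other than leaving out COP replicates 1 and 2. Means under the filter signal of 174, in COP for Clec3b, Ucp1, Msmp, Ephx2, Cemip2, Haghl, Anks1b, Ccl5 and Cyren and in F344 for Mx2, Cyp4v3, Vof16, Hyou1, Hpse, Sowaha and Fmo5, limit how exact their fold changes and ranks are.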
